A study of Mus musculus with 24 samples.

Results

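The RUNX transcription factors Runx1, Runx2 and Runx3, together with their common partner Cbfb, were followed in mouse livers after a high fat diet. The 4 genes were taken by symbol from the deposited mouse count table and are 4 of its 56205 gene rows. The table holds 24 poly(A) RNA libraries, each from the whole liver of a C57BL/6J mouse. Of these, 12 mice received the high fat diet (FFD, a diet of palm oil fat, fructose and cholesterol) and 12 a control diet (FFD_Ctrl), both for 20 weeks. The sources name no genetic change and no agent other than the diets. The study included males and females on each diet, but the labels do not give the sex of a library.

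RUNX proteins bind DNA through the Runt domain and are named for the roles in which they were first studied. RUNX1 is required for definitive blood formation and acts in myeloid cells and platelets, RUNX2 drives the differentiation of bone-forming cells, and RUNX3 acts in cytotoxic T cells, natural killer cells and sensory neurons. CBFβ, the product of Cbfb, does not contact DNA itself but raises the DNA affinity of each RUNX protein and protects it from degradation. The proteins can activate or repress, depending on the cofactors they recruit. In the healthy liver most cells are hepatocytes, while RUNX factors are best known from immune, mesenchymal and biliary cells. A whole-liver library therefore mixes all of these, and more cells of a type cannot be told apart from more RNA per cell.

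Runx1 (ENSMUSG00000022952) lies on the minus strand at chr16:92601466-92826149 of GRCm38, Runx2 (ENSMUSG00000039153) on the minus strand at chr17:44495987-44814797, Runx3 (ENSMUSG00000070691) on the plus strand at chr4:135120652-135177990 and Cbfb (ENSMUSG00000031885) on the plus strand at chr8:105170674-105217989. All 4 are protein coding. The antisense genes that share exon bases with Runx1 and Runx2, Gm26626 and Runx2os1, had 0 to 1 counts in every library.

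The RUNX genes have a distal and a proximal promoter, and the distal one carries copies of the motif that RUNX proteins themselves recognise. RefSeq promoters of GRCm38.p6, from 250 bases before to 50 after each start, held 6 entries for the 4 genes. The distal promoters of Runx1 and Runx3 and the Runx2 promoter shared an identical stretch of 18 bases with a tandem pair of ACCACA, the reverse complement of TGTGGT. The 30 bases around it are shown, 5′ to 3′ on the strand of each gene, because they are a sequence feature that the 3 RUNX genes have in common and Cbfb lacks; capitals mark ACCACA.
Runx1, chr16:92826025-92826054: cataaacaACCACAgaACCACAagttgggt
Runx2, chr17:44814583-44814612: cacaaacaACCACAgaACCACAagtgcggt
Runx3, chr4:135120503-135120532: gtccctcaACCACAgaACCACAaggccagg
The shared stretch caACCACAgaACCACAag began 27 bases after the start in Runx1, 22 bases after it in Runx2 and 136 bases before it in Runx3. Searched on both strands, it occurred in 4 of 32851 promoters (0.0122%), those of the 3 RUNX genes and of Gm16225, whose promoter on the opposite strand overlaps that of Runx3. Single copies of TGTGGT were common by comparison, in 16.8% of promoters, and TGCGGT was found in 6.45%. Neither motif occurred in the Cbfb promoter or in the proximal promoters of Runx1 and Runx3. A match of letters is a description and does not show that a protein binds there, and counts per gene do not show which promoter was used.

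Total counts were similar on both diets, at 16490817 to 21213070 on FFD and 14468418 to 22112552 in the controls. At this depth the RUNX genes rested on few counts, and the precision of their values is limited by counting error as well as by the spread between animals. Control replicate 10 had the lowest total and stood apart, with 1 count for the 3 RUNX genes together, so results that rest on it are given with and without it. Libraries also fell into sets that the labels do not name: replicates 1 to 6 of each diet had 2664 counts or more of Xist and 0 of Ddx3y, while replicates 7 to 12 had 3 or fewer of Xist and at least 448 of Ddx3y. These are called the Xist-high and Xist-low sets below. The sets are used only to recompute each diet difference within them and are not groups of the labels.

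Runx1 rose on FFD and separated the diets completely. It had 46, 37, 53, 47, 41, 35, 66, 45, 72, 99, 42 and 61 counts in FFD replicates 1 to 12, and 20, 11, 30, 15, 16, 20, 7, 10, 18, 1, 21 and 5 counts in control replicates 1 to 12. In TMM-scaled counts per 1000000 (CPM), the level was 2.57 ± 0.603 on FFD and 0.773 ± 0.390 on the control diet (SD, n = 12 each), a ratio of means of 3.33. All 12 FFD libraries, from 1.76 to 3.90 CPM, lay above the highest control library at 1.44 CPM. The log2 fold change was 1.70 (SE 0.24), with an edgeR adjusted p = 6.95e-06 over 17913 genes. A permutation test of log2(CPM + 1) gave p = 2e-05, two-sided, where 1e-05 is the smallest value that 100000 permutations can give.

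Runx2 also rose, from the lowest level of the family. It had 12, 9, 17, 15, 13, 12, 19, 10, 48, 40, 24 and 33 counts in FFD replicates 1 to 12, against 3, 6, 7, 4, 0, 16, 3, 10, 8, 0, 9 and 5 in the controls. In 7 of 12 FFD libraries the level exceeded the highest control, and the groups overlapped. The means were 0.981 ± 0.484 CPM on FFD and 0.316 ± 0.228 CPM on the control diet (SD, n = 12 each), with a log2 fold change of 1.59 (SE 0.38, edgeR adjusted p = 0.0016; permutation p = 4e-05). In 4 control libraries Runx2 was at 3 counts or fewer, which is the limit of what this depth resolves.

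Runx3 rose to a similar extent but spread more widely on FFD. It had 26, 21, 17, 25, 17, 23, 22, 47, 99, 40, 49 and 48 counts in FFD replicates 1 to 12, and 16, 13, 15, 9, 14, 19, 5, 5, 8, 0, 22 and 2 in the controls. The level was 1.72 ± 0.961 CPM on FFD and 0.562 ± 0.355 CPM on the control diet (SD, n = 12 each). Only 6 of 12 FFD libraries exceeded the highest control, replicate 11 at 1.25 CPM, and FFD replicate 9 stood highest at 4.19 CPM. The log2 fold change was 1.57 (SE 0.34, edgeR adjusted p = 0.00081; permutation p = 5e-05).

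Cbfb, by contrast, was abundant and did not pass the test. Its counts ran from 315 to 640 on FFD, with a median of 426, and from 190 to 474 in the controls, with a median of 332.5. Scaled levels were 20.9 ± 3.21 CPM on FFD and 18.6 ± 2.77 CPM on the control diet (SD, n = 12 each), and the groups overlapped broadly. Only 2 FFD libraries exceeded the highest control. The log2 fold change of 0.17 (SE 0.090) had an edgeR adjusted p = 0.136 and a permutation p = 0.0731.

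**Figure D1:**
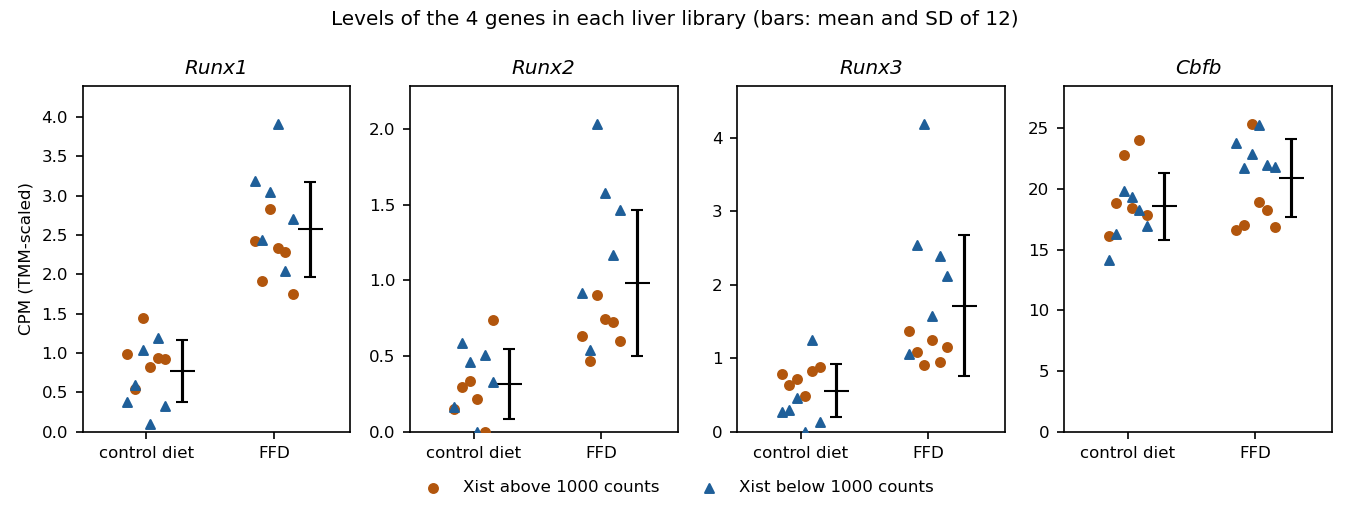
Level of each gene in every liver library in CPM (y axes start at 0 and differ between panels), with circles for the Xist-high and triangles for the Xist-low set and bars for the mean and SD of 12 libraries. Runx1 on FFD lay above every control library, Runx2 and Runx3 overlapped in part, and Cbfb overlapped broadly.

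A gene was called higher or lower where the adjusted p was at most 0.01 and the absolute log2 fold change above 0.5. Thus 3 of the 4 genes were called higher and 0 lower, where 13.2% of the 17913 genes tested were called higher and 4.99% lower. Complete separation, as seen for Runx1, was rarer and occurred upwards in 1.48% of the genes tested. Without control replicate 10 the 3 log2 fold changes were 1.61 for Runx1, 1.498 for Runx2 and 1.47 for Runx3, and each remained called. Cbfb was 0.17 without it and was not called.

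FFD replicate 9, the library with the most Runx2 and Runx3, also had 1138 counts of the biliary keratin gene Krt19, against 19 to 192 in the other FFD libraries. The summed level of 5 cholangiocyte markers was 881 CPM there, the highest of 24. On average Spp1, also one of the RUNX2 targets below, carried most of this sum. Its mean was 268 CPM on FFD and 43.5 CPM on the control diet. The other 4 markers, Krt19, Krt7, Epcam and Sox9, had means of 7.22, 4.64, 10.4 and 5.60 CPM on FFD. Without this library the log2 fold change of Runx2 was 1.46 and that of Runx3 was 1.38, both called. The part that biliary cells had in the levels of Runx2 and Runx3 was not tested.

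Recomputed within each Xist set, the diet difference of Runx1 was called in both sets. Its libraries also separated completely in both, which follows from the separation of all 24 libraries and adds nothing to it. Its mean went from 0.942 ± 0.292 CPM to 2.26 ± 0.381 CPM in the Xist-high set (SD, n = 6 each; log2 fold change 1.26, edgeR adjusted p = 0.00294) and from 0.604 ± 0.426 to 2.89 ± 0.646 CPM in the Xist-low set (2.21, edgeR adjusted p = 0.000369). The exact permutation p was therefore fixed in both sets at 0.00216, the smallest that 6 against 6 libraries allow. Runx1 was the only member called in the Xist-high set, in which 2.91% of genes were called higher and 0.896% lower.

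For Runx3 the diets also separated in the Xist-high set, at 1.12 ± 0.177 against 0.724 ± 0.139 CPM (SD, n = 6 each), but by a small step that was not called (log2 fold change 0.63, edgeR adjusted p = 0.0883; exact permutation p = 0.00216). In that set 3.51% of genes separated upwards. In the Xist-low set the same gene went from 0.401 ± 0.443 to 2.31 ± 1.07 CPM (log2 fold change 2.45, edgeR adjusted p = 0.00247), and the groups overlapped because control replicate 11, at 1.25 CPM, exceeded the lowest FFD library at 1.06 CPM.

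Markers of several cell types were called more often in the same set. In it 14.3% of all genes were called higher, against 2.91% in the Xist-high set. Of 10 T and NK cell markers 6 were called higher in the Xist-low set (Cd3d, Cd3g, Cd8a, Trbc2, Nkg7 and Ncr1), with summed levels of 7.37 to 11.96 CPM on FFD and 3.12 to 6.60 CPM in the controls, and 0 in the Xist-high set, with 3.68 to 7.42 and 5.05 to 11.9 CPM. Of 5 cholangiocyte markers 4 were called higher in the Xist-low set (258 to 881 against 27.3 to 131 CPM) and 0 in the Xist-high set (31.6 to 176 against 29.5 to 86.3 CPM). Macrophage markers were called higher for 6 of 8 in the Xist-low and 4 of 8 in the Xist-high set, and B cell markers for 1 of 4 and 0. Ptprc, a gene of all leukocytes, was called in the Xist-low set only. Hepatocyte markers were called lower for 6 of 6 and 1 of 6, where 7.89% and 0.896% of all genes were. Activated stellate cell markers were called higher for 6 of 8 in each set. The part of these cell types in the levels of Runx3 and the other members was not tested.

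The diet difference of Runx2 was 1.19 on the log2 scale in the Xist-high set (edgeR adjusted p = 0.127) and 1.86 in the Xist-low set (edgeR adjusted p = 0.00622). For Cbfb the log2 fold change was -0.05 in the Xist-high set (edgeR adjusted p = 0.828) and 0.41 in the Xist-low set (edgeR adjusted p = 0.00415). In the latter all 6 FFD libraries, at 22.9 ± 1.39 CPM, lay above all 6 controls, at 17.5 ± 2.12 CPM, a separation that 12.6% of genes showed. Because 0.41 is below the fold threshold, Cbfb was not called there. In the Xist-low set 3 of 4 members were called higher, where 14.3% of genes were, and 0 were called lower, where 7.89% of genes were.

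The difference between the sets was tested directly as an interaction of diet and set. It was 0.94 for Runx1 (SE 0.43, edgeR adjusted p = 0.182), 0.66 for Runx2 (SE 0.71, edgeR adjusted p = 0.622), 1.81 for Runx3 (SE 0.58, edgeR adjusted p = 0.0473) and 0.46 for Cbfb (SE 0.16, edgeR adjusted p = 0.0678), all larger in the Xist-low set. None of the 4 passed the threshold of 0.01. That threshold together with an absolute log2 difference above 0.5 was passed by 4.04% of genes. For Runx3 the call depended on the tool and on a single library, since DESeq2 gave 1.85 with an adjusted p = 0.00894 and edgeR without control replicate 11 gave 2.56 with an adjusted p = 0.00149.

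**Figure D2:**
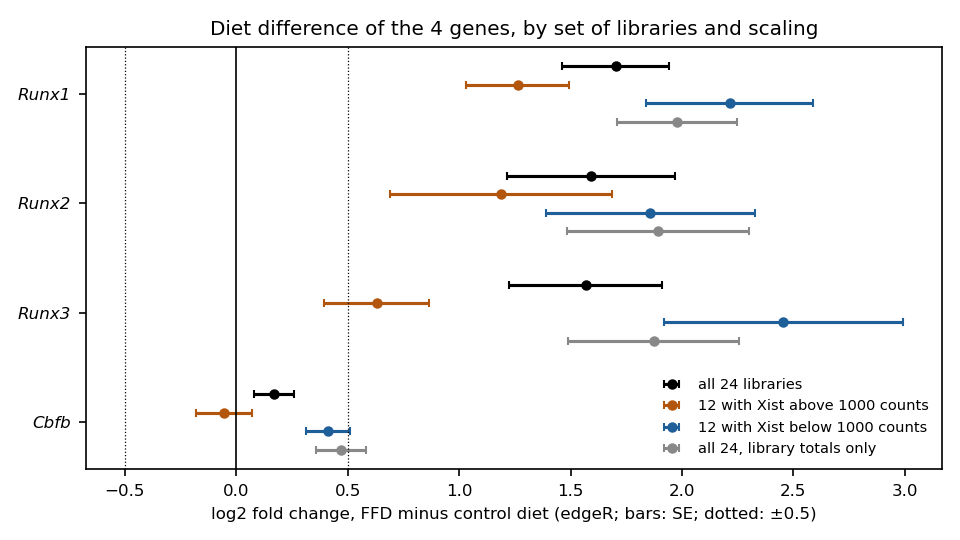
Log2 fold change of FFD against control diet for the 4 genes (x axis), from edgeR with its SE as bars, over all 24 libraries, within each Xist set, and with library totals in place of TMM. The 3 RUNX genes lay to the right of 0 in every fit, while Cbfb lay at -0.05 in the Xist-high set and at 0.47 with library totals.

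The scaling of the libraries differed between diets. TMM factors were 0.994 to 1.34 on FFD and 0.679 to 1.01 in the controls, and with library totals alone the median log2 fold change of all genes moved from -0.03 to 0.26. On library totals Cbfb was 0.47 higher on FFD (edgeR adjusted p = 0.00161), close to the fold threshold of 0.5 and still not called. The RUNX genes were called under both scalings, at 1.98, 1.89 and 1.87 for Runx1, Runx2 and Runx3 with library totals.

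Levels were compared between genes per kb of exon, since Runx1 has 12025 bases of exon sequence, Runx2 8837, Runx3 5003 and Cbfb 3480. On this scale Cbfb stood far above its partners in all 24 libraries, at a mean of 6.00 CPM per kb on FFD and 5.34 CPM per kb on the control diet. Runx3 followed with 0.343 and 0.112 CPM per kb, Runx1 with 0.214 and 0.0643, and Runx2 with 0.111 and 0.0357. Runx3 and Runx1 were not cleanly ordered: Runx3 was the higher in 8 of 12 FFD and 10 of 12 control libraries. Runx1 exceeded Runx2 in 12 of 12 FFD libraries and in 9 of 12 control libraries.

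The excess of Cbfb mRNA over the RUNX mRNAs shrank on FFD. The ratio of Cbfb counts per kb to the summed RUNX counts per kb, which does not depend on the scaling of the libraries, had a median of 9.55 on FFD (4.99 to 14.03) and 26.4 on the control diet (12.9 to 657). In 11 of 12 FFD libraries it was below the lowest control. On the log2 scale the means were 3.23 ± 0.391 and 5.03 ± 1.47 (SD, n = 12 each), a difference of -1.80 (permutation p = 3e-05, 0.00012 after Benjamini-Hochberg adjustment over 4 measures). The highest control value is that of replicate 10 and rests on 1 RUNX count, and without it the difference was -1.40. Within the Xist-high and Xist-low sets the difference was -1.02 and -2.58, with no overlap in either (exact permutation p = 0.00216 each). The Xist-low mean includes control replicate 10, at 9.36 on the log2 scale, and was not recomputed without it. The log2 medians in that set were 3.02 on FFD and 5.01 on the control diet.

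The make-up of the RUNX sum did not differ detectably between diets. Runx3 contributed 49.4 ± 10.4% on FFD and 46.6 ± 18.8% on the control diet (SD, n = 12 each), Runx1 34.2 ± 8.75% and 36.2 ± 20.8%, and Runx2 16.4 ± 3.84% and 17.2 ± 13.0%, with permutation p-values of 0.667, 0.884 and 0.829. With all libraries kept, the diet difference of each share had opposite signs in the Xist-high and Xist-low sets. The Xist-low controls include replicate 10, at 100% Runx1 from 1 count, and that set was not recomputed without it. Leaving it out of the comparison of both sets together gave differences of 3.77 percentage points for Runx1 and -1.35 for Runx3. In the Xist-high set the Runx3 share was 11.2 percentage points below the control (45.9 ± 6.64% against 57.1 ± 7.76%, n = 6 each; exact permutation p = 0.026, adjusted 0.0519).

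**Figure D3:**
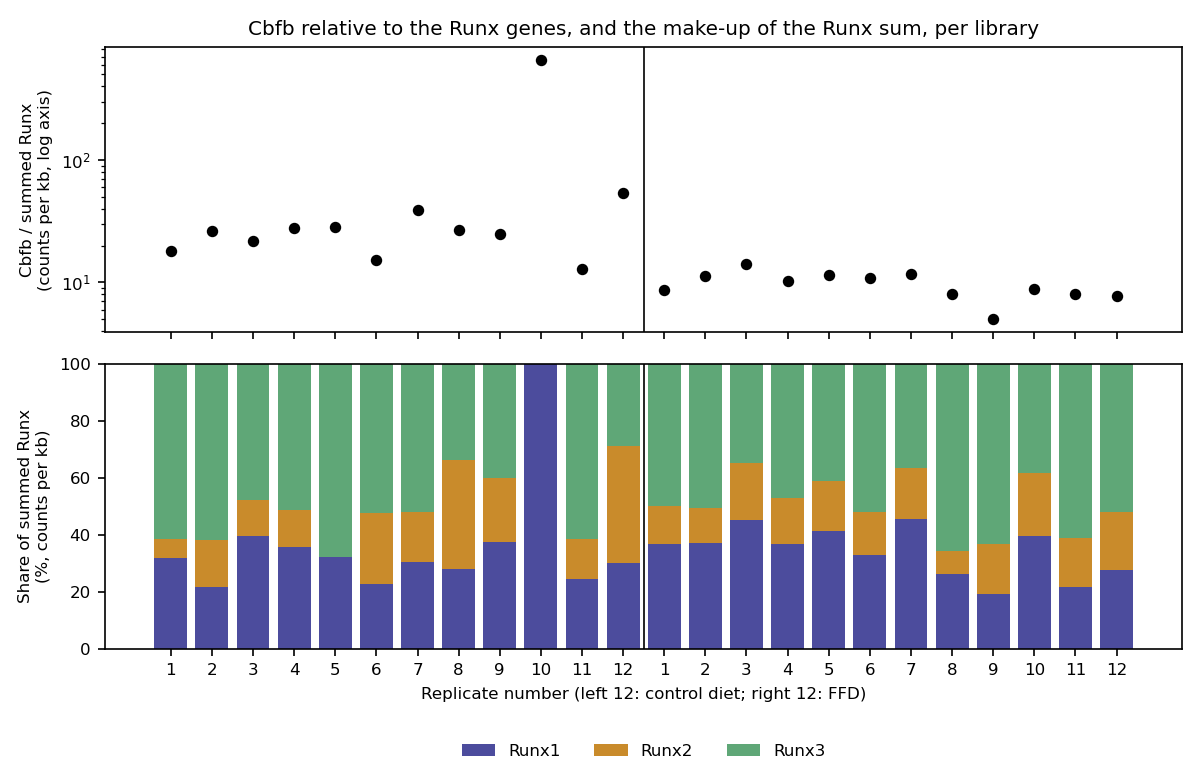
Upper panel, ratio of Cbfb to the summed RUNX counts per kb in each library (log axis). Lower panel, share of Runx1, Runx2 and Runx3 in that sum in percent. The ratio was lower on FFD in nearly every library (right 12), while the shares of both diets overlapped; control replicate 10 shows 100% Runx1 because its sum is 1 count.

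To see whether the genes varied together from animal to animal, correlations were computed over the 24 libraries after the mean of each diet and Xist set was removed, for 18 pairs of the members with each other and with Col1a1 (a fibrillar collagen of activated stellate cells), Csf1r (the macrophage growth factor receptor) and Cd3e (a T cell receptor subunit). At an adjusted p of at most 0.05, looser than the 0.01 of the calls and interactions, Runx1 with Csf1r was the only pair to pass. Pearson's r was 0.67 (permutation p = 0.00231, adjusted 0.0416) and Spearman's rho 0.68 (permutation p = 0.00246, adjusted 0.0443). Leaving out control replicates 10 and 11, the most extreme in Runx1, left r at 0.58. With a pseudocount of 0.1 in place of 1, r was 0.63 and did not pass (adjusted permutation p = 0.0671), while rho was 0.72 and passed (adjusted permutation p = 0.0256), and by r 0 of 18 pairs passed.

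Runx2 and Runx3 had their largest r outside the family with Col1a1, at 0.49 (permutation p = 0.0147) and 0.54 (permutation p = 0.0181), each 0.109 after adjustment, and rho was 0.49 and 0.40. For Runx3 the value rested in part on FFD replicate 9 and control replicate 11, without which it was 0.30. With Cd3e the values were near 0, at -0.14 for Runx1, 0.11 for Runx2, -0.03 for Runx3 and -0.17 for Cbfb. Within the family the highest r was 0.48, for Runx1 with Runx2 (permutation p = 0.0315, adjusted 0.142), followed by 0.42 for Runx1 with Cbfb (permutation p = 0.0442, adjusted 0.159).

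**Figure D4:**
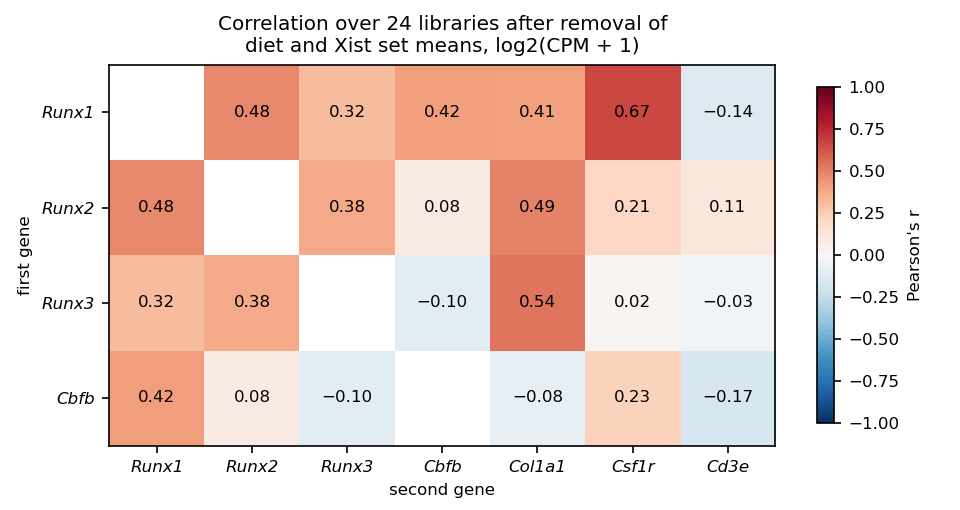
Pearson's r over 24 libraries after removal of diet and Xist set means, for each member (rows) with the other members and with Col1a1, Csf1r and Cd3e (columns). The darkest cell is Runx1 with Csf1r at 0.67, the only pair with an adjusted p of at most 0.05, and the Cd3e column is pale.

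Among the 11137 genes with a mean of at least 50 counts, those whose levels followed each member most closely over the same 24 centred libraries were listed, as a description. They were Rcsd1 (r = 0.86), Fhl1 (0.82), Grk5 (0.80), Arhgap31 (0.80) and Itga9 (0.78) for Runx1, and Itga6 (0.82), Clmp (0.77), Ccdc88c (0.77), Zfp385a (0.77) and Srgap2 (0.74) for Runx2. For Runx3 they included Clcf1 (0.81), Rai2 (0.78), Ptprs (0.78) and Lhfp (0.78), and for Cbfb Esam (0.81), Apex2 (0.81), Grap (0.80), Snx10 (0.79) and Cebpd (0.79). The likeness of Clcf1 and Lhfp to Runx3 was 0.56 and 0.45 once FFD replicate 9 and control replicate 11, the most extreme in Runx3, were left out. The members themselves, except Cbfb, were below the mean count required here. All of these values share the depth of the same libraries.

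Cofactors are the proteins that RUNX factors recruit or are modified by. Of 18 cofactor genes 1 was called higher and 1 lower, where 13.2% of all genes were called higher, 4.99% lower and 18.2% in either direction. Their median log2 fold change was -0.16, where it was -0.03 over all genes tested. Both of the called genes encode Groucho-type corepressors, which bind the C-terminal end of RUNX proteins. Tle3 rose from 17.3 ± 6.78 to 32.1 ± 4.17 CPM (log2 fold change 0.89, edgeR adjusted p = 0.00012), and Tle1 fell from 63.6 ± 12.8 to 39.0 ± 5.67 CPM (-0.71, edgeR adjusted p = 9.59e-06). The direction of the list depended on scaling. With library totals in place of TMM its median was 0.12, 7 of 18 genes changed sign, 2 were called higher and 0 lower, and Tle3 and Tle1 were at 1.19 and -0.42. With TMM both calls, Tle3 up and Tle1 down, were made in each Xist set, at 1.25 and 0.67 for Tle3 and at -0.62 and -0.77 for Tle1.

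The remaining members of the corepressor family, Tle2 at -0.35 and Tle4 at -0.35, were below the fold threshold, as was Smurf2 at -0.42 (edgeR adjusted p = 1.48e-05), an E3 ligase that marks RUNX proteins for degradation. The acetyltransferase genes Ep300, Crebbp and Kat6a had log2 fold changes of -0.25, -0.13 and -0.13, the methyltransferase genes Prmt1 and Kmt2a 0.09 and -0.18, the kinase gene Hipk2 -0.43, and Ets1, whose product binds DNA together with RUNX1, 0.36. None of these was called, and the others, Cbfa2t2, Cbfa2t3, Sin3a, Smurf1 and Stub1, lay between -0.22 and 0.28. Runx1t1, the partner of RUNX1 in a leukaemia fusion, had 0 to 12 counts.

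Genes known as direct targets were then read for each factor. Of 8 RUNX1 targets 5 could be tested and all 5 were called higher, where 13.2% of all genes were. Csf1r was at 118 ± 33.8 CPM on FFD and 59.0 ± 27.2 CPM on the control diet (log2 fold change 0.998, edgeR adjusted p = 0.00068), Spi1, the myeloid factor PU.1, at 30.4 ± 9.85 and 11.05 ± 5.96 CPM (1.45, edgeR adjusted p = 3.18e-05), and Pf4, a platelet and macrophage chemokine, at 2.52 ± 1.23 and 0.698 ± 0.362 CPM (1.84, edgeR adjusted p = 2.25e-05). The calls of the neutrophil granule genes Mpo and Elane rested on FFD replicate 3, which had 702 and 332 counts where the FFD medians were 2 and 5, and were lost without it, leaving 3. In the Xist-high set 0 of these genes were called, where 2.91% of all genes were called higher. Csf2 and Il3 had too few counts to be tested.

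Of 10 RUNX2 targets 5 could be tested and 3 were called higher, where 13.2% of all genes were. Spp1 (osteopontin) was at 268 ± 216 CPM on FFD and 43.5 ± 27.9 CPM on the control diet (log2 fold change 2.62, edgeR adjusted p = 3.27e-05). The collagenase gene Mmp13 was at 2.76 ± 1.59 and 0.319 ± 0.483 CPM (3.04, edgeR adjusted p = 7.2e-05). Col1a1 was at 119 ± 68.2 and 13.6 ± 14.2 CPM (3.12, edgeR adjusted p = 4.09e-06). Alpl, at 0.49, was just under the fold threshold and passed it in 12 of the 24 fits that left out 1 library, and Mmp9 had an edgeR adjusted p = 0.0483. The targets that define bone cells, Bglap, Ibsp and Sp7, together with Tnfsf11 and Col10a1, had 0 to 4 counts and could not be tested. In the Xist-high set Col1a1 alone was called, where 2.91% of all genes were called higher.

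Of 9 RUNX3 targets 8 could be tested and 1 was called higher, close to the 13.2% of all genes that were. This was Eomes, a T-box factor of cytotoxic lymphocytes, with 1 to 20 counts on FFD and 0 to 4 on the control diet (log2 fold change 2.88, edgeR adjusted p = 0.00114). Cd8b1 had a log2 fold change of 1.54 (edgeR adjusted p = 0.0334), Cd8a of 0.74 (edgeR adjusted p = 0.263), the effector genes Prf1 and Gzmb of 0.32 and 0.17, and Itgae, the integrin of tissue-resident T cells, of 0.12. Ifng, with 0 to 5 counts, could not be tested. Cd4 and Zbtb7b, which RUNX3 represses in cytotoxic T cells, had values of -0.92 (edgeR adjusted p = 0.103) and -0.13. Control replicate 6 had 85 counts of Cd8a, the most of any library, and without it Cd8a was 1.70 and Cd8b1 2.16, both called. In the Xist-low set Cd8a, Cd8b1 and Eomes were called, where 14.3% of all genes were called higher. Eomes had 6 to 20 counts in the FFD libraries of that set and 0 in all 6 controls. Both there and over all 24 libraries Eomes met the detection filter only through the FFD libraries, so its calls are a description.

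The study reported lower mRNA of the human counterparts of Lum, Thbs2, Col1a1 and Col1a2 after RUNX1 knockout in human hepatic stellate cells. In these mouse livers all 4 extracellular matrix genes were called higher, where 13.2% of all genes were. Col1a1 is also among the RUNX2 targets, and Col1a1 and Col1a2 are among the markers of activated stellate cells. The log2 fold changes were 2.11 for Lum, 1.44 for Thbs2, 3.12 for Col1a1 and 2.41 for Col1a2 (edgeR adjusted p-values 5.2e-06, 4.09e-06, 4.09e-06 and 2.81e-06). These genes were listed for the study's knockout result, with earlier results of these data known. They are not independent evidence of a direction.

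**Figure D5:**
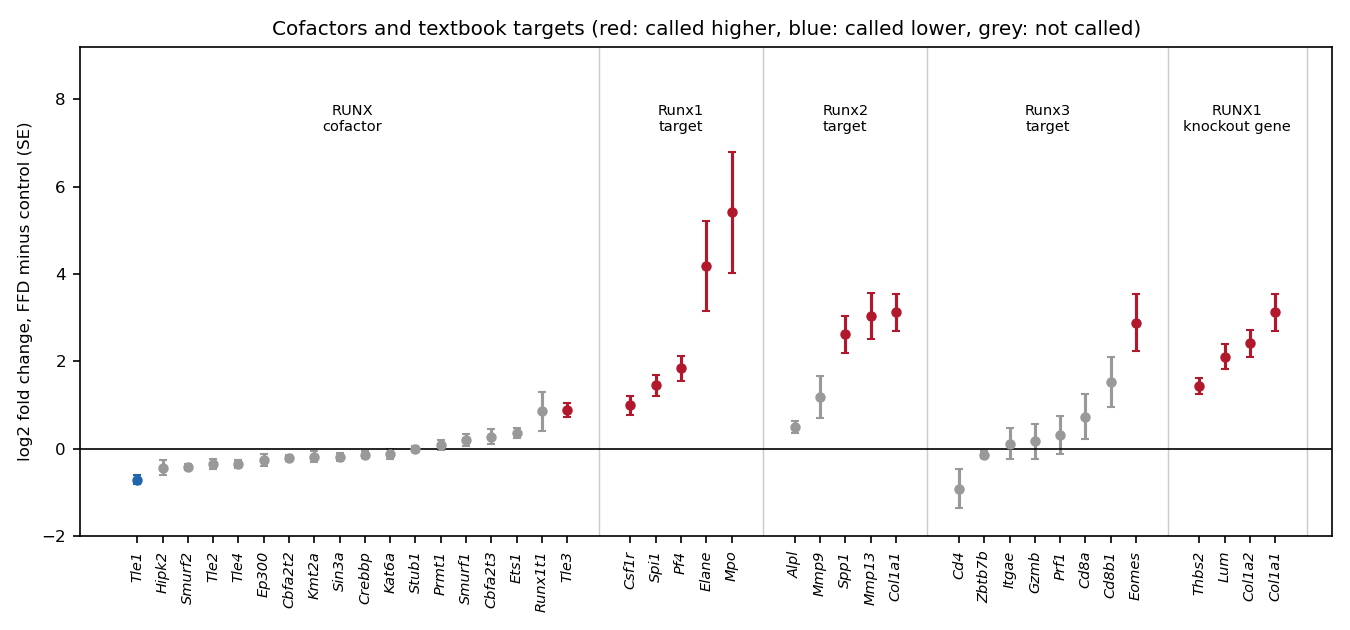
Log2 fold change of FFD against control diet with its SE for each tested cofactor and target gene (y axis), grouped by list. Cofactors scatter around 0 with Tle3 and Tle1 at the ends, the tested RUNX1 targets lie between 0.998 and 5.41, and Mpo and Elane have the longest bars.

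The cell markers moved with diet as well, and their part in the levels of the members was not tested. Their calls are to be read beside those of all genes, of which 13.2% were called higher and 4.99% lower. Albumin and the other hepatocyte markers were abundant in every library, and 5 of 6 were called lower, with summed levels of 36125 to 91150 CPM on FFD and 81305 to 130690 CPM on the control diet. Higher calls were made for 6 of 8 markers of activated stellate cells (182 to 688 against 50.3 to 245 CPM), 6 of 8 of macrophages (284 to 698 against 97.4 to 399 CPM), 4 of 5 of cholangiocytes (31.6 to 881 against 27.3 to 131 CPM) and 1 of 5 of sinusoidal endothelium (118 to 294 against 113 to 247 CPM). Ptprc, expressed by all leukocytes, rose by 1.13 on the log2 scale (edgeR adjusted p = 8.2e-05), from 4.54 to 17.1 CPM in the controls to 16.5 to 28.4 CPM on FFD. Over all 24 libraries 0 of 10 markers of T and NK cells were called (3.68 to 11.96 against 3.12 to 11.9 CPM), although 6 were called within the Xist-low set. Of the markers of B cells 0 of 4 were called (2.43 to 10.4 against 2.07 to 9.68 CPM) and of those of plasmacytoid dendritic cells 0 of 3 (206 to 253 against 163 to 417 CPM). Bst2 carried most of the plasmacytoid sum, with means of 220 CPM on FFD and 200 CPM on the control diet. Siglech had means of 0.360 and 0.186 CPM.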

How the data were processed

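The authors deposited whole-number read counts per gene for 24 mouse liver libraries. According to the submitters' processing notes, reads were demultiplexed with bcl2fastq and aligned with STAR 2.7.3a to mm10; the counting tool, its annotation and its strand setting are not given in the sources used here. Symbols, positions and exon lengths came from GENCODE M21, in which 51745 of 56205 identifiers matched; the other 4460 held 0.0723% of counts. Groups were taken from the labels. The 17913 genes detected with 1 count or more in 12 or more libraries were fitted with edgeR 4.0.16 (quasi-likelihood test, TMM, no covariate beside diet, p-values adjusted by Benjamini-Hochberg across all of them), using R 4.3.3. The study's thresholds (adjusted p at most 0.01, absolute log2 fold change above 0.5) were used. Within a set detection in 6 or more libraries was required. Single measures were tested by two-sided permutation over libraries (scipy 1.17.1), exactly for 6 against 6 and with 100000 permutations otherwise. Correlations used log2(CPM + 1). DESeq2 1.42.0, limma 3.58.1, other scalings and filters, and leaving out each library were alternatives. Scripts were tested on simulated data.

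The labels give 1 library per mouse and no batch, so p-values measure the spread between these libraries. No 2 libraries of a diet agreed within sampling noise. Named genes were the members, all genes of the cofactor, target, knockout and marker lists, and the 5 genes most like each member; some of these are not reported here. Members and lists were chosen with earlier results of these data known. RefSeq promoters matched 4 of 4 members.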

Additional observations from a re-analysis of the deposited data

How the results depend on the processing

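Runx1 kept its call under every alternative run except the filter on 10 counts in every library, which removed all 3 RUNX genes. Without 1 library at a time the log2 fold change was 1.61 to 1.82 for Runx1, 1.46 to 1.78 for Runx2, 1.38 to 1.73 for Runx3 and 0.14 to 0.21 for Cbfb, and no call of these changed. In the Xist-high set Runx2 (1.19) and Runx3 (0.63) were not called and Cbfb was at -0.054. The interaction of diet and set passed for Runx3 with DESeq2 (1.85) and for Cbfb with library totals (0.81), and without 1 library it was 1.56 to 2.56 for Runx3, passing without control replicate 11. Same-numbered libraries deviated together in 11 of 12 pairs (r from 0.155 to 0.541) but not in number 9 (-0.0935). Only diet means were removed, and same-numbered libraries fell in the same Xist set, so this likeness cannot show pairing. The labels name no shared animal, litter or batch, and the numbers were not treated as pairs. With the replicate block the members' log2 fold changes were 1.76, 1.64, 1.56 and 0.17, with no changed call.

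Genes called higher and lower numbered 2372 and 894. They were 3827 and 226 with library totals, 3709 and 3388 at an adjusted p of at most 0.05 with no fold threshold, 525 and 162 in the Xist-high set, and 1430 lower in the Xist-low set. With 10 counts in every library 1226 were higher. Cofactors called higher were 2 with library totals and 2 at 0.05, and those called lower were 0, 5 and, in the Xist-low set, 2. RUNX1 targets called higher were 3 with DESeq2, limma-voom, filterByExpr, the replicate block and in the Xist-low set, 2 with 10 counts in every library, 0 in the Xist-high set, and 3 to 5 without 1 library. RUNX2 targets were 5 at 0.05 and 1 in the Xist-high set. RUNX3 targets were 0 with filterByExpr, with 10 counts in every library and in the Xist-high set, 2 at 0.05, 3 in the Xist-low set, and 1 to 3 without 1 library.

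Diet differences of the shares in the Xist-high set were 7.65 (Runx1), 3.51 (Runx2) and -11.2 percentage points (Runx3). Over all 24 libraries they were -2.02, -0.86 and 2.89, and without 1 of these libraries -3.33 to 3.77, -2.43 to 1.30 and -1.35 to 4.81. Pairs passing by r at an adjusted p of at most 0.05 numbered 0 with a pseudocount of 0.1, 7 with centring by diet only and 6 with library totals. Values of r that changed sign were, with the pseudocount, Runx2 with Cbfb (-0.072) and with Cd3e (-0.11); with centring by diet only, Runx3 with Cbfb (0.31), Cbfb with Col1a1 (0.24), and Cd3e with Runx1 (0.18), Runx3 (0.28) and Cbfb (0.15); and with library totals, Runx3 with Cbfb (0.25) and Cd3e (0.091) and Cbfb with Col1a1 (0.24). The causes were not tested. Counts of 0 to 22 limit Runx2 and Runx3 in the control libraries.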

Other observations

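FFD replicate 3 stood apart in genes of neutrophils, with 702 counts of Mpo, 332 of Elane and 83 of Mmp9, where the other FFD libraries had at most 9, 8 and 33. The same library had the highest Cbfb level of all 24, at 25.3 CPM, while its Runx1 level of 2.82 CPM lay within the range of the other FFD livers and its Runx3 level of 0.906 CPM was the lowest on this diet.

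Control replicate 11 had the most Col1a1 of the control livers, 972 counts where the other controls had 47 to 524, together with the highest Runx3 level on the control diet, at 1.25 CPM. Its Runx1 level, at 1.19 CPM, was second to that of control replicate 3. Without this library the log2 fold change of Col1a1 was 3.59 and that of Runx3 was 1.73.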
